A study of Rattus norvegicus with 12 samples.

Results

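The genes described here encode the subunits of the mitochondrial respiratory chain and of the ATP synthase, with the assembly factors and relatives that carry the same name stems. They were taken from the array's annotation as every probe set with exactly 1 gene symbol that began with Nduf, Uqcr, Atp5, Cox4, Cox5, Cox6, Cox7 or Cox8, or that was Sdha, Sdhb, Sdhc, Sdhd or Cyc1. This gave 90 probe sets for 85 of the 10412 genes with 1 symbol on the array, and each gene was represented by its probe set with the highest mean signal. No expression difference was used to choose them. A total of 80 of the 85 passed the filter on low signals described below, among 7192 genes that did, and they comprised 39 genes of complex I, 4 of complex II, 8 of complex III, 13 of complex IV and 16 of the ATP synthase (complex V).

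The respiratory chain passes electrons from NADH (complex I) and succinate (complex II) through complex III and cytochrome c to oxygen (complex IV), and the protons pumped on the way drive the ATP synthase. Each complex is built from core subunits that carry the redox centres or the catalytic sites and from accessory subunits that hold and stabilize them, and complexes I, III, IV and V also contain subunits made from mitochondrial DNA. Liver cells rely on this machinery heavily, and transformed cells often shift part of their ATP production to glycolysis.

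RNA was measured in GP7TB ("tumor") cells and in WB-F344 ("normal") cells, each grown for 18 hours in arginine-deficient medium or in medium with 0.168 g/l L-arginine HCl, with 3 independent cultures and 1 RAE230A array in each of the 4 groups. WB-F344 is a diploid epithelial line from adult rat liver (male, strain Fischer-344), and GP7TB is a line derived from it after 11 exposures to 5 µg/ml MNNG, an alkylating carcinogen, and it forms tumors in rats of the same strain. All 4 groups received the same medium otherwise, with 5% fetal bovine serum, and each cell type is a single line, so the comparison between them is one of 2 lines. The paper states that the serum was not dialyzed and that arginine starvation was not total. The words "without arginine" below therefore stand for the arginine-deficient medium. The arrays of each cell type came from 3 paired experiments of 1 arginine-deficient and 1 arginine-sufficient culture, and in tumor experiment 2 trypsin was not used according to the run records.

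Levels are given as Microarray Suite 5.0 signals, on a linear scale unless log2 is named. The filter asked that at least 3 of the 12 arrays show the probe set in their upper 54%, a threshold that lay at 146 to 191, and 9745 probe sets passed. The log2 differences come from limma and carry a standard error (SE, n = 3 arrays per group), and a gene was called when its p, adjusted by Benjamini-Hochberg over the 9745 probe sets, was under 0.05. The p-values measure the spread between cultures of 1 line, and in bulk RNA fewer cells with a transcript and less of it per cell cannot be told apart. Tumor arrays were all scanned on 1 day and normal arrays on 3 other days, with different chip lots, so any comparison of tumor with normal cells is also one of scan days, and the 2 cannot be told apart. Chip lot also differed within the pairs of tumor experiments 1 and 2, and chip lot and scan day within that of normal experiment 2. In these pairs the arginine ratio is also one of lots or days. The hepatocyte markers fixed for this work were near background, with 2 of 9 above the threshold in at least 3 arrays, and Apoa1 and Tat were at 3.4 to 14.7 on all 12. Of the 7 epithelial and biliary markers on the array, Krt8 and Krt7 were above it on all 12 arrays and the other 5, the junction and adhesion genes Cdh1, Epcam and Cldn4 and the keratins Krt18 and Krt19, on none. Krt7 was at 176 to 382 in tumor cells, against 3200 to 6320 in normal cells. Krt8 went the other way, at 5690 to 11200 in tumor cells, against 2160 to 7040 in normal cells. The collagen transcripts Col1a1 and Col1a2 were at 212 to 592 and 24.2 to 124 in tumor cells, against 15100 to 28500 and 15200 to 25000 in normal cells, and the summed signal of the 8 fibroblast markers was 15630 to 23120 in tumor cells and 54880 to 93270 in normal cells. Of the other markers in that sum, Col3a1 and Acta2 were also lower on all tumor arrays. Vim overlapped, at 10400 to 15700 in tumor cells and 13500 to 19500 in normal cells. Des also overlapped (112 to 176 and 126 to 494), and Lum and Pdgfrb were under the threshold on all 12 arrays. The part of these marker differences in the differences between the cell types given below was not tested. None of the 6 leukocyte or 3 endothelial markers passed the threshold in 3 arrays.

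Most of these genes were bright on the arrays. Of the 80 tested, 64 lay in the brightest of 5 equal bins of the tested probe sets by mean log2 signal. Each was represented by its brightest probe set, whereas the bins hold every tested probe set, so the choice itself favoured bright ones. The median SD of the 80 genes within a group was 0.22 on the log2 scale, against 0.30 over all tested probe sets and 0.24 in the brightest bin. The 5 genes that did not pass were isoforms best known from other tissues or from low oxygen. Cox8b, the heart and muscle isoform of subunit 8, was at 2.96 to 3.45 in group means of log2 signal, and Cox6b2, the testis isoform of subunit 6B, was at 1.58 to 3.95. Cox4i2 and Cox7a1 were also under the threshold on all 12 arrays. Ndufa4l2, a relative of Ndufa4 that is known from low oxygen, had a mean log2 signal of 7.23 ± 0.27 and 7.13 ± 0.67 in arginine-deficient and arginine-sufficient tumor cells, against 4.81 ± 1.16 and 5.96 ± 1.0 in the same media in normal cells (SD, n = 3 each), and was not tested. Cox6c-ps1, annotated as a pseudogene of Cox6c, passed and was the most variable of the 80 (SD 0.58). The widely used isoforms Cox4i1, Cox6a1, Cox6b1 and Cox8a were above the threshold on all 12 arrays.

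**Figure D1:**
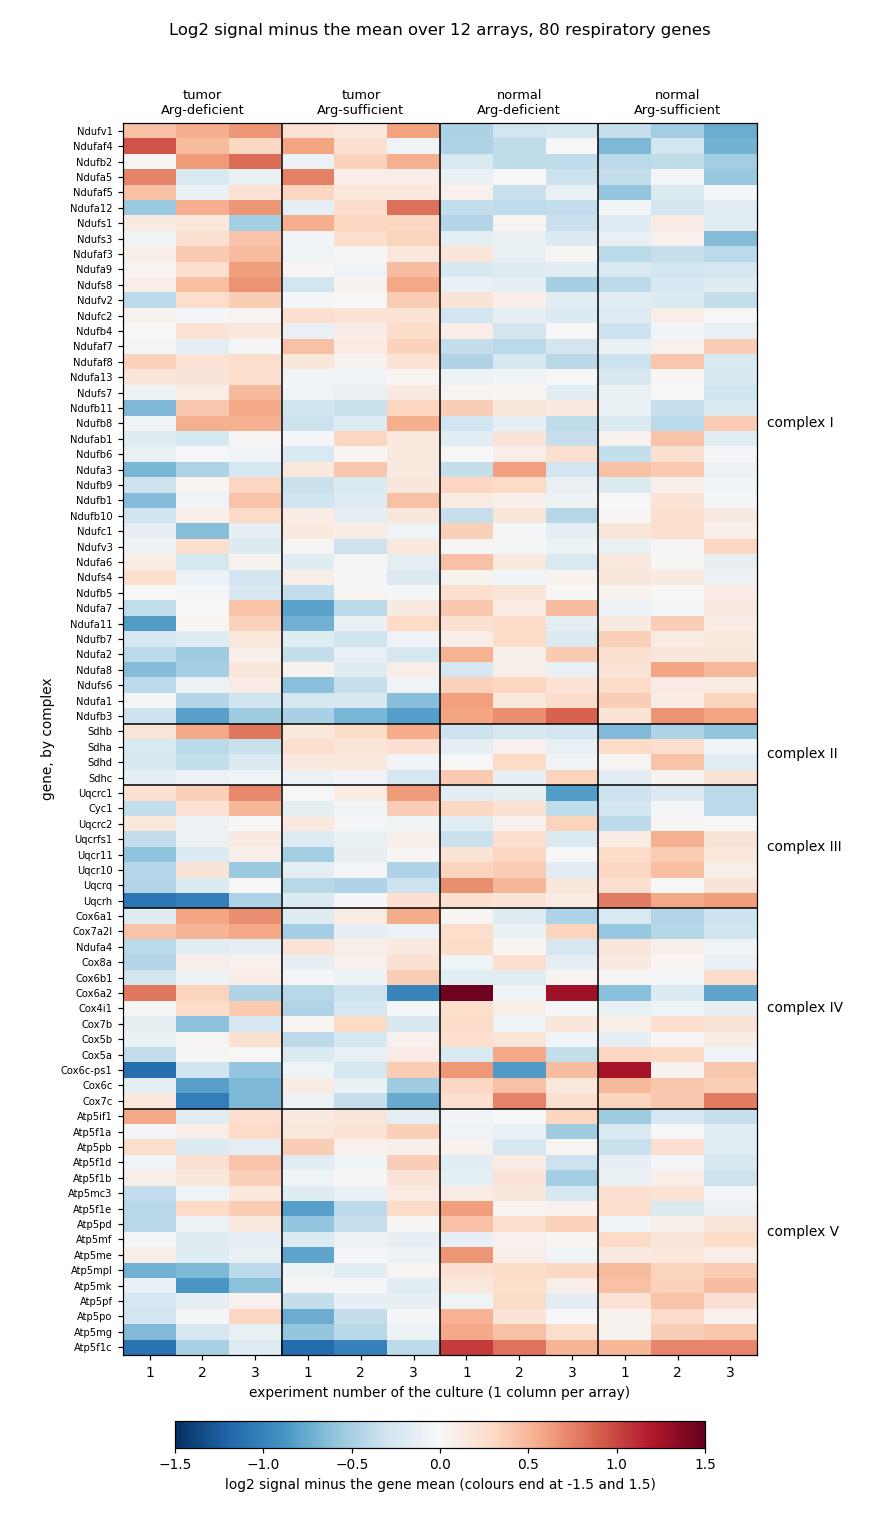
Log2 signal of each of the 80 tested genes on each of the 12 arrays, as a difference from the gene's mean over all arrays, with genes in rows by complex and arrays in columns by group (tumor arginine-deficient, tumor arginine-sufficient, normal arginine-deficient, normal arginine-sufficient). Most genes stay close to their mean, and Atp5f1c and Ndufb3 are lower on all 6 tumor arrays than on the 6 normal arrays.

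The first question was whether arginine deprivation altered these transcripts. In tumor cells Uqcrh was lower and Cox7a2l higher in arginine-deficient cultures, and they were the only 2 of 80 genes called (2.5%), against 1.91% of all tested probe sets (0.965% higher and 0.944% lower). In normal cells none of the 80 was called by limma, where 0.164% of all tested probe sets were, and 7 had an unadjusted p under 0.05. In tumor cells 9 had an unadjusted p under 0.05. Most of the family thus gave no call in either cell type. In simulated tumor arrays the fit recovered 40% of the probe sets shifted by 1 on the log2 scale and 5% of those shifted by 0.5. The shifted probe sets were drawn from all tested ones, with a median SD of 0.30, against 0.22 for the 80 genes. The recovered shares are therefore not those of this family, and a missing call does not show an unchanged level.

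Uqcrh (probe set 1371415_at) encodes the acidic hinge protein of complex III, which sits between cytochrome c1 and cytochrome c. Its signals were 1439, 1498 and 2206 in arginine-deficient tumor cells, against 2645, 2990 and 3642 in arginine-sufficient tumor cells (experiments 1 to 3). The groups did not overlap. In normal cells they were 3603, 3522 and 3330 in arginine-deficient cultures, against 5218, 4545 and 4695 in arginine-sufficient cultures, again with no overlap. The fitted difference in tumor cells was -0.87 ± 0.18 (1.82-fold lower, adjusted p = 0.0305). In normal cells it was -0.47 ± 0.18 with an adjusted p of 0.443. Within the experiments the log2 ratio of deficient to sufficient was -0.88, -1.0 and -0.72 in tumor cells and -0.53, -0.37 and -0.50 in normal cells.

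Cox7a2l (1371337_at) is a relative of cytochrome oxidase subunit 7A that, in mouse and human cells, is known to join complexes III and IV into supercomplexes. Its signals were 3442, 3653 and 3823 in arginine-deficient tumor cells, against 1802, 2355 and 2415 in arginine-sufficient tumor cells. In normal cells they were 3078, 2398 and 3244 without arginine, against 1730, 1912 and 2087 with it. In both cell types every arginine-deficient array was above every arginine-sufficient array. The fitted difference in tumor cells was 0.74 ± 0.17 (1.67-fold higher, adjusted p = 0.0402), and that in normal cells 0.60 ± 0.17 (1.51-fold, adjusted p = 0.272), which became a call when the experiment was fitted as a block (adjusted p = 0.0374), the 1 call among the 80 genes in a fit that called 2.41% of all tested probe sets. The ratios within experiments were 0.93, 0.63 and 0.66 in tumor cells and 0.83, 0.33 and 0.64 in normal cells.

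Both calls in tumor cells lay near the threshold. Leaving out 1 array at a time gave adjusted p of 0.0172 to 0.136 for Uqcrh, whose call was lost without any one of the arginine-sufficient tumor arrays or without the arginine-deficient tumor array of experiment 1 or 2. The same for Cox7a2l gave 0.0329 to 0.177, and its call was lost without any 1 tumor array and without the arginine-sufficient normal array of experiment 2 or 3. With both tumor cultures of experiment 2 left out, an alternative added after the data were seen, neither was called (0.365 and 0.353). In the values within chip lots, Uqcrh was at -0.77 and -1.06 and Cox7a2l at 0.84 and 0.55 in tumor cells. The second value of each gene sets 1 array against 1 of another experiment, the deficient culture of experiment 1 against the sufficient culture of experiment 2.

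**Figure D2:**
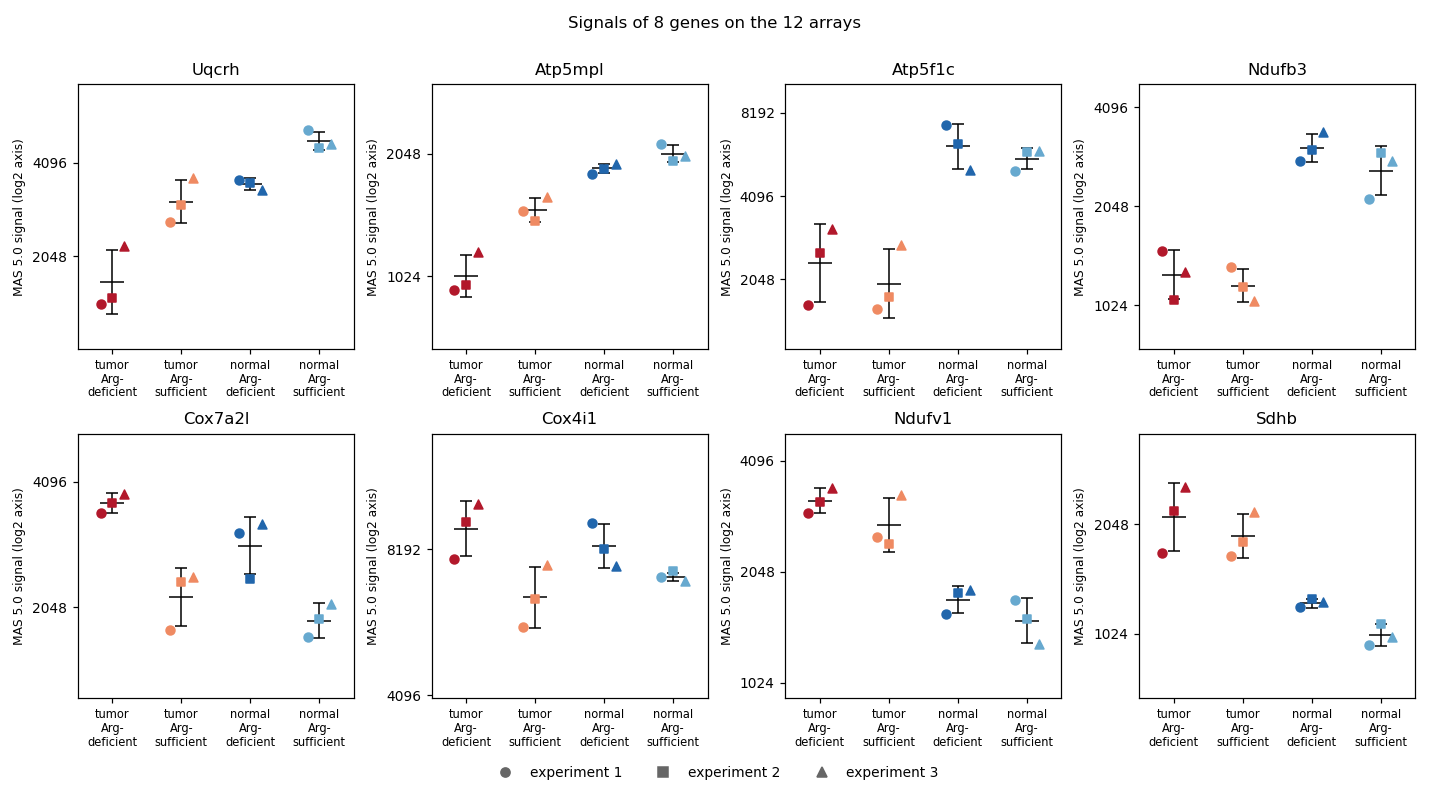
MAS 5.0 signals, on log2 axes, of 8 genes on the 12 arrays, with 1 symbol for each culture by experiment and bars for the mean and SD of the log2 signals of each group (n = 3). For Uqcrh the arginine-deficient arrays lie below the arginine-sufficient arrays in both cell types, and for Cox7a2l they lie above them, while Atp5f1c, Ndufb3, Ndufv1 and Sdhb separate tumor from normal cells.

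Fitting the experiment as a block raised the number of calls in tumor cells to 7 of 80 (8.75%), in a fit that called 11% of all tested probe sets. Beside Uqcrh (adjusted p = 0.00115) and Cox7a2l (0.0046), these were Cox4i1, higher, and Sdha, Ndufa3, Atp5mpl and Atp5mk, lower. Cox4i1 is the common isoform of subunit 4, which takes part in the regulation of cytochrome oxidase by ATP. It was at 7828, 9298 and 10130 in arginine-deficient tumor cells, against 5651, 6473 and 7597 in arginine-sufficient tumor cells, and at 9254, 8197 and 7570 in arginine-deficient normal cells, against 7161, 7384 and 7052 with arginine. The tumor difference was 0.47 ± 0.15 (adjusted p = 0.144, and 0.0145 with the block), and its groups did not overlap in either cell type. Sdha, the flavoprotein of complex II that oxidizes succinate, was at 1103, 976.4 and 1026 in arginine-deficient tumor cells, against 1535, 1462 and 1542 in arginine-sufficient tumor cells. Its difference there was -0.55 ± 0.15 (adjusted p = 0.0813, and 0.0172 with the block), with no overlap, and that in normal cells was -0.23 ± 0.15.

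The remaining genes called with the block belong to complexes I and V. Ndufa3, an accessory subunit of the membrane arm of complex I, was at 780.1, 914.3 and 1046 in arginine-deficient tumor cells and at 1400, 1655 and 1381 in arginine-sufficient tumor cells (-0.70 ± 0.25, adjusted p = 0.176, and 0.0272 with the block). Atp5mpl and Atp5mk, small subunits of the membrane part of the ATP synthase, had differences of -0.54 ± 0.15 and -0.48 ± 0.18 in tumor cells (adjusted p = 0.0779 and 0.205, and 0.0149 and 0.0485 with the block). For Atp5mpl the 3 ratios within experiments were -0.65, -0.52 and -0.45, whereas for Atp5mk they ran from -0.12 in experiment 1 to -0.85 in experiment 2. The largest fitted increase in both cell types was that of Cox6a2, the heart and muscle isoform of subunit 6A, and it was not called. Its signals were 223.5, 163.9 and 94.5 in arginine-deficient tumor cells, against 97.5, 103.7 and 65.4 with arginine, and 355.8, 124.9 and 313.2 in arginine-deficient normal cells, against 84.0, 112.4 and 74.9 with arginine. The differences were 0.80 ± 0.43 and 1.43 ± 0.43 (adjusted p = 0.405 and 0.289). With signals raised to each array's 46th percentile they were 0.08 and 0.55, since most of these signals lay under the threshold. The gene passed the filter through exactly 3 arrays, all of them arginine-deficient. Its entry into the test was thus not independent of its increase.

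Other genes stood at the ends of the range without a call. Ndufa8, an accessory subunit of complex I, had the lowest fitted difference of the 80 in normal cells, with 1048, 1330 and 1162 in arginine-deficient cultures, against 1426, 1881 and 1741 with arginine. These groups did not overlap, and the difference was -0.51 ± 0.21 (adjusted p = 0.463), with -0.32 ± 0.21 in tumor cells. Ndufaf7, which methylates a core subunit during the assembly of complex I, was lower without overlap in both cell types, at -0.37 ± 0.18 in tumor cells (adjusted p = 0.354) and -0.45 ± 0.18 in normal cells (0.445). Ndufb11, an accessory subunit of the membrane arm, was at 0.21 ± 0.27 in tumor cells and 0.45 ± 0.27 in normal cells, and Atp5f1e, the epsilon subunit of the ATP synthase, at 0.40 in tumor cells and 0.26 in normal cells. The difference between the responses was highest for Ndufb8 (0.51 ± 0.38, adjusted p = 0.968), again of the membrane arm of complex I, and lowest for Cox6a2. Of the redox subunits, Ndufs1 of complex I differed by -0.46 in tumor cells and -0.17 in normal cells and Uqcrfs1, the Rieske protein of complex III, by -0.03 and -0.38. Cox5a, Cox5b and Cox7b, subunits of cytochrome oxidase, were at -0.05, 0.25 and -0.37 in tumor cells and -0.19, 0.13 and -0.05 in normal cells, and Atp5mc3, a source of the c subunit, at -0.04 and -0.14. Cytochrome c1 (Cyc1) was at 0.06 and 0.28, Ndufa4, which belongs to cytochrome oxidase, at -0.39 and -0.04, and Cox6c-ps1 at -0.69 and -0.47. None of these genes was called for arginine or between the cell types.

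As a group the genes moved little. The median difference of the 80 genes was 0.027 in tumor cells and 0.031 in normal cells, where the medians of all tested probe sets were -0.046 and -0.04. In tumor cells 46 of 80 differences were above 0, and in normal cells 42 of 80. The medians of the 3 experiments were -0.01, 0.08 and 0.059 in tumor cells and 0.15, -0.017 and -0.076 in normal cells. The arginine-deficient arrays lay above the arginine-sufficient arrays without overlap for 3 of 80 genes in tumor cells and 9 in normal cells (9.69% and 6.18% of all tested probe sets), and below them for 11 and 7 (13.6% and 7.76%). The direction was the same in both cell types for 64 of 80 genes (80%), and for 63.7% of all tested probe sets. A test of the difference between the responses, tumor minus normal, called none of the 80 with limma and none of the 9745 probe sets (0%), and none of the 80 reached an unadjusted p under 0.05, where 5.64% of all tested probe sets did. With the block it also called none of the 80 (0.0513% of all). As a measure of RNA integrity, the 3' to 5' signal ratio of Gapdh was 1.13, 1.15 and 1.23 in arginine-deficient tumor cells, against 1.12, 1.09 and 1.14 with arginine, and 1.38, 1.17 and 1.01 in arginine-deficient normal cells, against 1.25, 1.15 and 0.998 with arginine. It was thus higher in the arginine-deficient array of each of the 6 pairs. The same ratio of Actb was 1.28, 1.21 and 1.63 in arginine-deficient tumor cells, against 1.28, 1.25 and 1.01 with arginine, and 1.41, 1.11 and 1.0 in arginine-deficient normal cells, against 1.1, 1.16 and 1.14 with arginine, and to the digits given 2 of the 6 pairs had the higher value without arginine. The part of either in these differences was not tested.

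**Figure D3:**
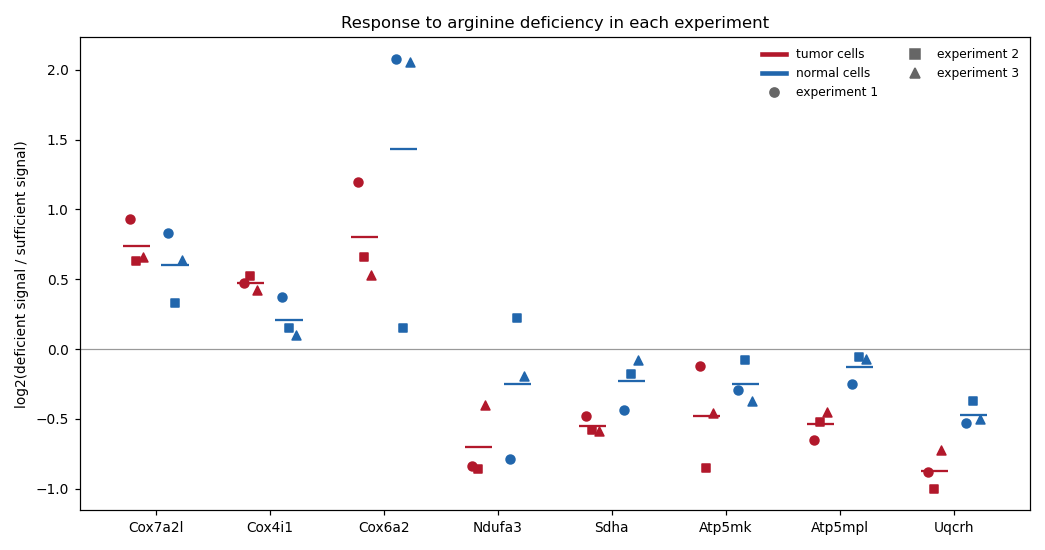
Log2 ratio of arginine-deficient to arginine-sufficient signal within each experiment, in tumor and in normal cells, for Cox7a2l, Cox4i1, Cox6a2, Ndufa3, Sdha, Atp5mk, Atp5mpl and Uqcrh. Symbols give the experiment, and horizontal lines the fitted difference of the gene in that cell type. In every experiment of both cell types Uqcrh lies below 0 and Cox7a2l above it.

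The second question was whether the transformed line held these transcripts at other levels than the normal line. Without arginine, 19 of 80 genes (23.8%) differed, 8 higher and 11 lower in tumor cells, against 40.7% of all tested probe sets (19.5% higher and 21.2% lower). With arginine, 16 of 80 (20%) differed, 4 higher and 12 lower, against 34.6% of all (16.4% higher and 18.1% lower). In both media the share called was thus below that of all tested probe sets. The differences were also small, with a fitted fold of at least 2 for 3 of 80 genes (3.75%) without arginine and 2 of 80 (2.5%) with it, against 24% and 20.7% of all tested probe sets. The split depended on the scaling of the arrays. With each array centred on its median, the median difference of all tested probe sets was 0.121 without arginine and 0.12 with it, in place of 0.009 and 0, and that of the 80 genes was 0.005 and 0.067, in place of -0.107 and -0.053. In that setting 8 genes were called higher and 10 lower without arginine and 8 and 4 with it, and with quantile normalization 8 and 14, and 7 and 17.

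The 8 genes called higher in tumor cells without arginine, of which 4 were also called with it, were 3 of the 18 tested core subunits, 2 of the 5 assembly factors and 3 of the 53 accessory subunits. Ndufv1 (1371416_at), the flavin subunit that takes electrons from NADH into complex I, was at 2958, 3171 and 3464 in arginine-deficient tumor cells, against 1573, 1790 and 1824 in arginine-deficient normal cells. With arginine it was at 2538, 2435 and 3308 in tumor cells, against 1717, 1523 and 1303 in normal cells. All 6 tumor arrays were above all 6 normal arrays. The differences were 0.89 ± 0.17 without arginine (1.85-fold, adjusted p = 0.000964) and 0.86 ± 0.17 with it (1.82-fold, adjusted p = 0.00143). Sdhb (1372123_at), the iron-sulfur subunit of complex II, was at 1709, 2233 and 2598 in arginine-deficient tumor cells, against 1215, 1278 and 1249 in arginine-deficient normal cells. With arginine its signals were 1680, 1826 and 2209 in tumor cells, against 953.4, 1092 and 1002 in normal cells, and the tumor arrays again did not overlap the normal arrays. The differences were 0.78 ± 0.18 (adjusted p = 0.00322) and 0.90 ± 0.18 (adjusted p = 0.00151). The other subunits of complex II gave no call, with differences of -0.26 and 0.06 for Sdha, -0.30 and -0.16 for Sdhc and -0.35 and -0.02 for Sdhd, without and with arginine.

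Ndufaf4, an assembly factor of complex I, and Ndufb2, an accessory subunit of its membrane arm, completed the 4 genes higher in both media. Ndufaf4 differed by 0.87 ± 0.23 without arginine and 0.81 ± 0.23 with it, and Ndufb2 by 0.84 ± 0.21 and 0.70 ± 0.21. Without arginine 4 more were called higher, namely Uqcrc1, a protein of complex III without a redox centre that was counted as accessory (0.81 ± 0.22), the complex I assembly factor Ndufaf8 (0.65 ± 0.20), the iron-sulfur subunit Ndufs8 (0.65 ± 0.22) and the accessory subunit Ndufa9 (0.50 ± 0.18). With arginine these had differences of 0.56, 0.19, 0.39 and 0.40 and were not called. Uqcrc1 was at 4497, 4909 and 6328 in arginine-deficient tumor cells, against 3444, 3486 and 2145 in arginine-deficient normal cells.

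The 2 largest decreases in tumor cells were those of Atp5f1c and Ndufb3. Atp5f1c (1370918_a_at) encodes the gamma subunit, the rotor shaft of the ATP synthase, and was at 1656, 2554 and 3111 in arginine-deficient tumor cells, against 7404, 6293 and 5092 in arginine-deficient normal cells. With arginine it was at 1605, 1763 and 2725 in tumor cells, against 5048, 5907 and 5934 in normal cells. The fitted differences were -1.39 ± 0.25 (2.62-fold lower, adjusted p = 0.000627) and -1.51 ± 0.25 (2.84-fold lower, adjusted p = 0.000426). The alpha and beta subunits of the same enzyme's catalytic head, Atp5f1a and Atp5f1b, were not called, at 0.35 ± 0.16 and 0.37 ± 0.18 without arginine and 0.37 ± 0.16 and 0.16 ± 0.18 with it. Ndufb3 (1373041_at), an accessory subunit of the membrane arm of complex I, was at 1500, 1064 and 1291 in arginine-deficient tumor cells, against 2820, 3038 and 3435 in arginine-deficient normal cells. With arginine its signals were 1338, 1161 and 1056 in tumor cells, against 2153, 2985 and 2811 in normal cells. It differed by -1.28 ± 0.18 (adjusted p = 0.000118) and -1.15 ± 0.18 (adjusted p = 0.000317).

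Uqcrh, lower in arginine-deficient than in arginine-sufficient tumor cells, was also lower in tumor than in normal cells, with differences of -1.05 ± 0.18 without arginine (2.07-fold lower, adjusted p = 0.000517) and -0.65 ± 0.18 with it (1.57-fold lower, adjusted p = 0.0137). The other genes called lower in both media were Cox7c and Cox6c, membrane subunits of cytochrome oxidase, at -0.94 and -0.90 and at -0.85 and -0.59 without and with arginine. They also included Atp5mpl (-0.87 and -0.46) and Atp5mg (-0.76 and -0.64) of the ATP synthase membrane part, Uqcrq (-0.67 and -0.54), a small subunit of complex III, and Ndufa1 (-0.60 and -0.64), an accessory subunit of complex I. Cox7c was among the more variable of these, with 3268, 1429 and 1837 in arginine-deficient tumor cells, against 3498, 4928 and 3482 in arginine-deficient normal cells. Ndufa2 (-0.62) and Atp5mk (-0.70) were called only without arginine, and Ndufs6 (-0.52), Atp5pf (-0.50) and Atp5mf (-0.39) only with it. The difference between the media in the tumor to normal contrast is the same quantity as that between the responses to arginine, which was called for none of the 80.

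In both media alike, 4 genes were called higher (5%) and 9 lower (11.2%), against 13% and 15.3% of all tested probe sets. All 6 tumor arrays lay above all 6 normal arrays for 5 genes (6.25%, against 13.7% of all), which were Ndufv1, Ndufa9, Ndufb2, Sdhb and Uqcrc1. They lay below them for 10 genes (12.5%, against 15.2%), which were Ndufa1, Ndufa2, Ndufb3, Uqcrq, Cox6c, Cox7c, Atp5f1c, Atp5mg, Atp5mk and Atp5mpl. Ndufv1, Sdhb, Atp5f1c and Ndufb3 kept their calls in both media under every alternative run, and of the others Cox6c, Uqcrh, Atp5mpl, Ndufaf4, Ndufb2, Atp5mg, Uqcrq and Uqcrc1 did so without arginine and none with it. No alternative could separate cell type from scan day or chip lot, since no day or lot held both cell types.

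**Figure D4:**
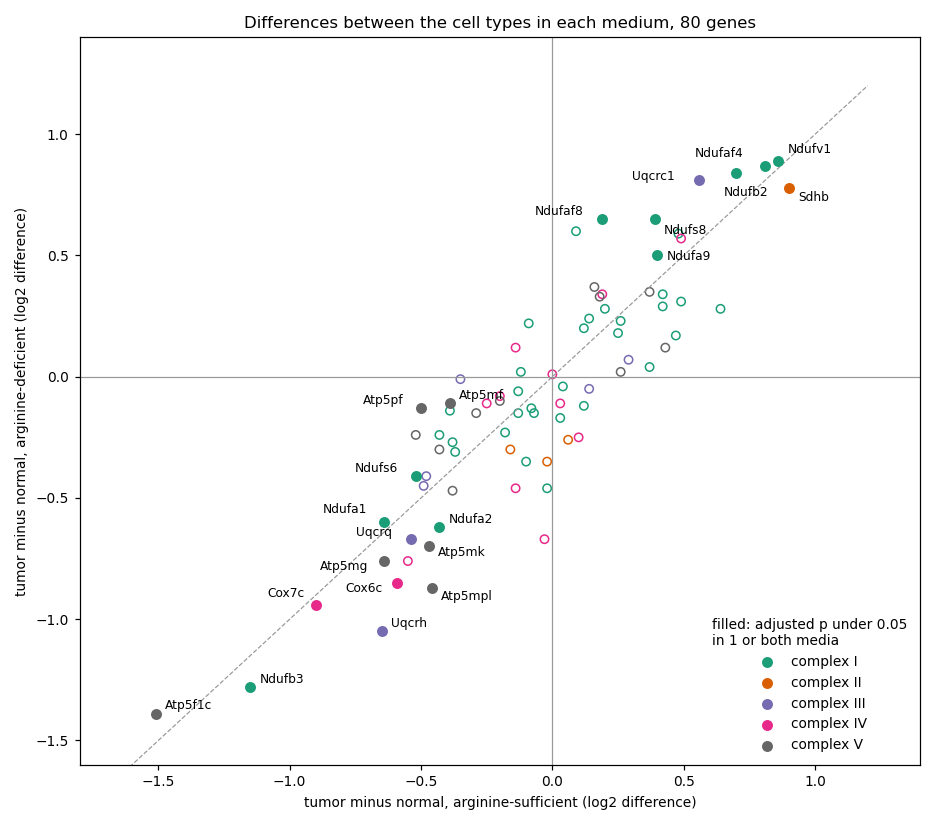
Log2 differences between tumor and normal cells for the 80 genes with arginine (horizontal axis) and without it (vertical axis), coloured by complex, with filled points for genes called in 1 or both media and the diagonal dashed. Ndufv1 and Sdhb stand at the upper right and Atp5f1c and Ndufb3 at the lower left.

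The genes were also set out by complex and role, as counts and medians with no test between the groups, to be read beside the shares of all tested probe sets called (19.5% higher and 21.2% lower without arginine, 16.4% and 18.1% with it). In complex I the core subunits and assembly factors were pooled, a grouping outside the planned division by complex and by role. These 11 tested genes had differences above 0 in both media, with medians of 0.31 without arginine and 0.42 with it. Of them, 4 and 2 were called higher. Their differences ran from 0.04 to 0.89 and from 0.12 to 0.86, within the range of the accessory subunits of the complex (-1.28 to 0.84 and -1.15 to 0.70) but for those of Ndufv1 and Ndufaf4. With median centring all 11 stayed above 0 in both media, and with quantile normalization 10 of 11 did without arginine (the lowest at -0.03) and 11 with it. The 28 accessory subunits of complex I had medians of -0.13 and -0.08, with 2 higher and 3 lower called without arginine and 1 and 3 with it, and with median centring the second median was 0.03. Over all complexes, the 18 core subunits were mixed in sign. Without arginine 11 were above 0 and 7 below, with a median of 0.12 and 3 higher and 1 lower called. With arginine 12 were above and 6 below, with a median of 0.17 and 2 and 1 called. With median centring both splits were 13 and 5, and with quantile normalization 9 and 9 without arginine and 12 and 6 with it. The 53 accessory subunits of all complexes gave 3 higher and 10 lower calls without arginine and 1 and 11 with it, which became 3 and 9, and 2 and 3, with median centring and 3 and 13, and 2 and 15, with quantile normalization. The 16 genes of the ATP synthase had no call higher and 4 and 5 lower, with medians of -0.14 and -0.38, which were -0.03 and -0.26 with median centring, where 4 and 1 were called lower. With quantile normalization 5 were lower without arginine, and 1 was higher and 8 lower with it. The medians of all tested probe sets were 0.01 and 0. Complex III gave 1 higher and 2 lower calls without arginine and 2 lower with it, and complex IV 2 lower in each medium. The complex III calls with arginine became 0 with median centring and 1 higher and 4 lower with quantile normalization. Among the regulators, Atp5if1, the inhibitor of ATP hydrolysis by the ATP synthase, differed by 0.12 ± 0.20 and 0.43 ± 0.20 and was not called.

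The genes also differed between the cultures of one group, in a way that followed the experiment. In tumor cells 50 of 80 genes (62.5%) were higher in experiment 3 than in experiment 1 in both media, against 32.5% of all tested probe sets, with median log2 differences of 0.35 without arginine and 0.25 with it (-0.06 and -0.05 over all). The largest were those of Ndufa11 (1.18 and 1.02) and Ndufa12 (1.21 and 0.98), accessory subunits of complex I. Experiment 3 was also above experiment 2 for 49 of 80 genes (61.3%, against 25.4% of all). In normal cells the direction was the other way, with experiment 3 below experiment 1 in both media for 36 of 80 genes (45%, against 32.4% of all). The pairs share their handling and, in part, scan day and chip lot, replicates of a group have no order, and no test was made. The SD within the tumor groups of genes such as Atp5f1c (0.47 and 0.41 without and with arginine) includes these differences.

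**Figure D5:**
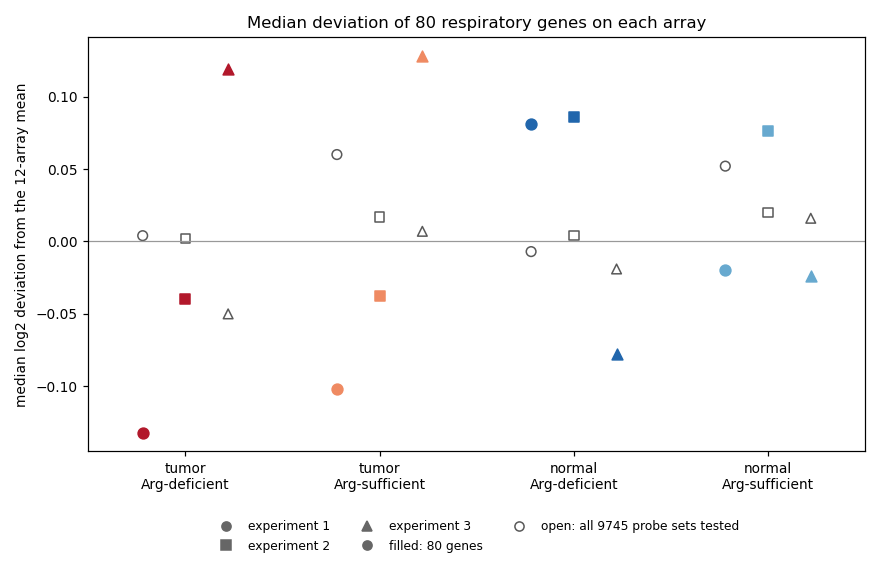
Median over the 80 genes of the deviation of the log2 signal from the gene's mean over the 12 arrays, for each array (filled symbols, by experiment), beside the same median over all 9745 tested probe sets (open symbols). In tumor cells the medians of the 80 genes are -0.132 and -0.102 in experiment 1 and 0.119 and 0.128 in experiment 3, without and with arginine, while those of all probe sets lie between -0.05 and 0.06.

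Nuclear genes for respiratory subunits are known to be bound at their promoters by NRF1 and by the ETS family factor GABP, also called NRF2. Promoters of the annotation (RefSeq, rat GRCr8) were found for 76 of the 85 genes, and the 250 bases before the start were searched on both strands for the core of the NRF1 site (GCGC, 2 bases of any kind and GCGC) and for an ETS site (CCGGAAG). The NRF1 letters were present in 13 of 76 (17.1%), against 13.1% of the promoters of tested genes and 5.30% of all 27457 promoters. The ETS letters were present in 20 of 76 (26.3%), against 17.0% and 7.74%. One or both were in 32 of 76 (42.1%), against 27.6% and 12.2%, and Atp5me, the only gene with both, held them apart. Of the genes higher in tumor cells in a medium, 5 of 8 held a motif, and of the 14 lower, 9 of the 13 with a promoter did. A match is a description of the sequence and not evidence of binding. Shown are the last 120 bases before the start, on the strand of the gene, for 2 genes higher and 2 genes lower in tumor cells, one with each motif, and capitals mark the motif. In 5′ to 3′ order, Sdhb (chr5:158547814-158547933, plus strand) and Uqcrh (chr5:134790883-134791002, minus strand) hold the ETS letters 108 and 83 bases before the start, and Uqcrc1 (chr8:118468103-118468222, plus strand) and Atp5mpl (chr6:136845641-136845760, minus strand) the NRF1 letters 64 and 60 bases before it.
Sdhb: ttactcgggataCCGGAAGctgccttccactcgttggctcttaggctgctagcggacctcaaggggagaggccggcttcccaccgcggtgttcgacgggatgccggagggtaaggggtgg
Uqcrh: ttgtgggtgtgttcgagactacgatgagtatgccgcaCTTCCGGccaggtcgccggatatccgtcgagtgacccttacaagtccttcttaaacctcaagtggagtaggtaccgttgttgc
Uqcrc1: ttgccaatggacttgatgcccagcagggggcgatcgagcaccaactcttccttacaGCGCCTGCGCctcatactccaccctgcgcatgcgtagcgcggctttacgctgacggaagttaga
Atp5mpl: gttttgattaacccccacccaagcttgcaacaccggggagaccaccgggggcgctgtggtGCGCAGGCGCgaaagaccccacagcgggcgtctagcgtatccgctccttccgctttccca
In Uqcrh the ETS letters are those of the other strand.

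Genes of 6 lists from neighbouring pathways were read in the same fit. None of them was called for arginine in either cell type by limma without a block, while blocking on the experiment, which called 11% of all tested probe sets in tumor cells and 2.41% in normal cells, called 2 mitochondrial ribosomal proteins higher and 5 lower, 1 electron carrier or assembly factor higher and 2 lower, and 2 genes of mitochondrial biogenesis higher and 1 lower in tumor cells, and 1 gene of mitochondrial biogenesis higher in normal cells. The counts between the cell types stand beside 19.5% higher and 21.2% lower without arginine, and 16.4% and 18.1% with it, over all tested probe sets. Of 71 mitochondrial ribosomal proteins tested, 16 were higher and 3 lower in tumor cells without arginine and 16 and 2 with it, among them Mrpl33 (1.15 and 1.65) and Mrps35 (1.30 and 1.31). Of 38 electron carriers and assembly factors outside the name stems above, 10 were higher and 5 lower without arginine and 11 and 3 with it, led by Coq3 (1.65 and 2.18), an enzyme of ubiquinone synthesis. Of 24 genes of the tricarboxylic acid cycle and pyruvate dehydrogenase, 8 were called higher and 4 lower without arginine and 5 and 1 with it. Their differences ran from -2.01 to 1.07 without arginine and from -1.37 to 1.8 with it. Suclg1, a subunit of succinyl-CoA ligase, was within these ranges, at 0.93 and 0.92. Of 11 carriers and porins, 2 were higher and 2 lower without arginine and 3 and 2 with it. Ucp2, a proton-leak relative among the inner membrane carriers, had differences of -2.20 and -2.60. Of 10 genes of mitochondrial biogenesis, 3 were higher and 2 lower in each medium, with Esrra, a nuclear receptor that acts on respiratory genes, at 2.19 and 1.43 and Gabpb1, a subunit of GABP, at -0.70 and -0.51. The array also holds 2 subunits encoded in mitochondrial DNA, of which COX2 was lower in tumor cells, at -0.79 (adjusted p = 0.00188) and -0.58 (adjusted p = 0.0146), and COX1 was not called, at -0.08 and -0.41.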

How the data were processed

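The authors deposited 1 table of Microarray Suite 5.0 signal intensities for 15923 probe sets on 12 Affymetrix RAE230A arrays, summarized on each array over its perfect match and mismatch probes, with each array brought to the same trimmed mean. The scale is linear, with no centring per gene. The short run record of each array was read for scan day, chip lot and handling. The array annotation gave gene symbols, and all 85 were unchanged in RefSeq.

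Signals under 1 (9 to 24 on an array) were set to 1 and log2 was taken. Of these probe sets, 57 controls were left out. A linear model of the 4 groups was fitted in R 4.3.3 (limma 3.58.1), with an intensity trend and 8 residual degrees of freedom (4 with the experiment as a block). Gene groups were described by counts and medians only. In data simulated for tumor minus normal cells with arginine, few of the 9745 probe sets were changed, and 41% of those changed by a log2 of 1 were recovered. The measured arrays had 34.6% of all tested probe sets called in that comparison, which makes the adjusted threshold less strict than in the simulation. Arrays give no counts, so their number limits the precision.

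The experiment of each culture came from the paper's first table, the labels and the run records. With group means removed, the 3 pairs correlated at 0.56, 0.04 and 0.42 in tumor cells and 0.43, 0.42 and 0.38 in normal cells, over probe sets. As one pair was under 0.1, the fit without a block is given first, and the block beside it where it changes a call.

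Genes were named when called, when among the 4 largest or smallest differences of a comparison, or when isoforms, regulators or central subunits, with up to 4 genes of each other list. Cox7c, Ndufa11 and Ndufa12 in the comparison of experiments were named after their values were seen. The genes, lists and tests were chosen with earlier results of these data known. The alternatives were no filter or the highest 40%, low signals set to the 46th percentile, 16 added to signals, quantile normalization, median centring, the variance model, blocks, the arrays in the fit, the mean over probe sets and leaving out arrays. Promoters were searched and figures drawn with Python 3.11.15, numpy 2.4.6, pandas 2.3.3 and matplotlib 3.10.9.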

Additional observations from a re-analysis of the deposited data

How the results depend on the processing

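No called difference of a single gene changed sign. The medians over the 80 genes, which carry no test, did: with median centring the difference between tumor and normal cells was 0.005 without arginine and 0.067 with it, in place of -0.107 and -0.053, and the calls with arginine were 8 higher and 4 lower in place of 4 and 12. With 1 array left out the median for arginine was down to -0.022 in normal cells, in place of 0.031, and that of the difference between the responses up to 0.055, in place of -0.023. The 2 calls in tumor cells for arginine (the count reported) became 1 with no filter on low signals and with quantile normalization, and 0 with median centring, without the intensity trend, in a plain linear model, with chip lot as a block, with only the tumor arrays, and with both tumor cultures of experiment 2 left out, and 7 with the experiment as a replicate block. Leaving out 1 array gave 0 to 2, with 0 without any arginine-sufficient tumor array or the arginine-deficient tumor array of experiment 2. The median difference of the 80 genes there, 0.027, was 0.108 with median centring and -0.006 to 0.101 with 1 array left out. In normal cells the replicate block gave 1 call in place of 0, and the block changed no other call among the 80 genes. With arginine, the 16 differences between tumor and normal cells became 6 with both tumor cultures of experiment 2 left out, and 6 to 20 with 1 array left out, namely 8 and 6 without the arginine-sufficient normal array of experiment 1 or 3 and 9 and 7 without the arginine-sufficient tumor array of experiment 1 or 2. Without arginine, the 19 were 13 with both tumor cultures of experiment 2 left out and 15 to 23 with 1 array left out. The cause of these moves was not tested. Of the 16 and 19 calls, 4 and 12 were kept under every alternative run. A block for the experiment cannot be fitted to the difference between the cell types, since each experiment holds 1 cell type.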

Other observations

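Of the probe sets for respiratory subunits, 7 carry several gene symbols and so were outside the rule, since their signal can come from any of the genes named. None was called for arginine. The probe set shared by Cox7a2, the common isoform of subunit 7A, and Cox7a2l2 differed between tumor and normal cells by -0.44 without arginine (adjusted p = 0.0541) and -0.72 with it (adjusted p = 0.00518). That of Atp5mc2, a source of the c subunit of the rotor ring, and Atp5mc2l1 was at -0.42 (adjusted p = 0.0851) and -0.98 (adjusted p = 0.00123), and that of Ndufs5, an accessory subunit of complex I, and its pseudogene Ndufs5-ps2 at -0.54 (adjusted p = 0.0287) and -0.66 (adjusted p = 0.0117). The probe set of Ndufa10 and Ndufa10l1 was at 0.56 and 0.59 and was not called (adjusted p = 0.0711 and 0.0665). That of Cox5a and LOC100361008 was brighter than the one used for Cox5a. It was at 0.33 and -0.23 (adjusted p = 0.148 and 0.332), where the one used was at -0.11 and -0.25. For arginine the shared probe set was at 0.17 in tumor cells and -0.40 in normal cells. The second probe set of Sdhd, a membrane anchor of complex II, was at -0.42 and 0.05, and that of Ndufv3 at 0.07 and 0.33, and neither was called.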
